A study of Arabidopsis thaliana with 4 samples.

Results

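The comparison described here set fnr1 mutants of the Wassilewskija (Ws) ecotype of Arabidopsis thaliana against fnr1 mutants of the Columbia (Col) ecotype, with 1 array for each. The 2 arrays were scaled to a common median signal, control probe sets were dropped, and probe sets with a scaled signal of 30 or more on at least one of the 2 arrays were kept. That left 11712 of 22746 probe sets (51.5%), of which 10340 reached 30 on both arrays, 670 in fnr1 Ws alone and 702 in fnr1 Col alone. The study held 4 Affymetrix arrays in all: fnr1 Ws, fnr1 Col, wild type (WT) Ws and WT Col. The mutant labels give an FNR1 mutation in the named ecotype, with no allele or line, and do not say how many plants each array stands for. The aerial parts were harvested from plants of 31 days, at 4 h of light, after growth on soil of pH 6.5 with 8 h of light and 16 h of dark at 21 °C. Light was given at 100 µmol m⁻² s⁻¹ for all 4 arrays. No group has a replicate, so every value below compares single arrays, and no test or error between groups was possible.

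The FNR1 protein is a ferredoxin-NADP+ oxidoreductase of leaf chloroplasts. It sits at the end of the photosynthetic electron chain, where it uses electrons from reduced ferredoxin to make NADPH. Columbia and Wassilewskija are inbred natural accessions that differ at many sites of the genome, and natural accessions of Arabidopsis are known to carry deletions, rearrangements and divergent copies of defence genes. When both accessions carry a mutation of the same gene, the contrast between them holds the accession difference, and any difference in how each accession responds to the mutation is part of it. Any difference between the mutant alleles or lines, which the labels do not name, is part of that contrast too. The contrast of the wild types is made on other arrays and gives the accession difference without the mutation.

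The deposited signals had medians of 27.5 for fnr1 Ws and 27.7 for fnr1 Col, against 28.9 for WT Ws and 22.1 for WT Col, so scaling hardly moved the mutant arrays but multiplied WT Col by 1.25. Signal of the newer actin control at its 3′ end over that at its 5′ end was 2.70 in fnr1 Ws and 2.58 in fnr1 Col, and for the older actin control this ratio was 18.8 in fnr1 Ws and 30.3 in fnr1 Col. In the wild types the newer actin control had 2.36 in WT Ws and 2.78 in WT Col, and the older one 20.3 and 15.2. The newer GAPDH control had 0.897 in fnr1 Ws and 0.817 in fnr1 Col, and the older one 1.39 and 1.48. The mutant arrays thus lay close together on 3 of these 4 controls and apart on the older actin. The part of these differences in the ratios below was not tested. The leaf marker RCA, rubisco activase, had 7604 in fnr1 Ws and 7351 in fnr1 Col. The root hair genes EXPA7 and EXPA18 stayed under 11 on all 4 arrays, at 1.04 to 10.9. The root glucosidase gene PYK10 had 74.0 in fnr1 Ws and 138 in fnr1 Col, against 97.4 in WT Ws and 115 in WT Col. The leaf marker was bright and the root hair markers were dim on every array, while PYK10 was moderate; other leaf markers were not analysed here. FNR1 itself had no listed probe set and was not analysed here, so its level could not check the mutant labels.

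Transcripts that stood apart between the mutants were mostly lower in Ws. After signals under 30 were set to 30, 113 members were at least 2-fold higher in fnr1 Ws (0.965% of members) and 345 were at least 2-fold lower (2.95%). At 4-fold or more there were 10 higher (0.0854%) and 58 lower (0.495%), and at 8-fold or more 2 higher (0.0171%) and 17 lower (0.145%). Most members lay close together, since 10060 (85.9%) differed by under 1.5-fold and the median log2 ratio was 0.02. Counted over the 6127 genes with a probe set of their own, 61 genes were at least 2-fold higher (0.996%) and 156 at least 2-fold lower (2.55%). The lower tail was the longer one, with a 1st percentile of -1.62 and a 99th percentile of 0.99 on the log2 scale. Just inside the threshold, the nearest 3 members had plain log2 ratios of 0.50, -0.35 and 0.36, and just outside it the nearest 3 probe sets had 0.24, 0.38 and 0.24.

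**Figure D1:**
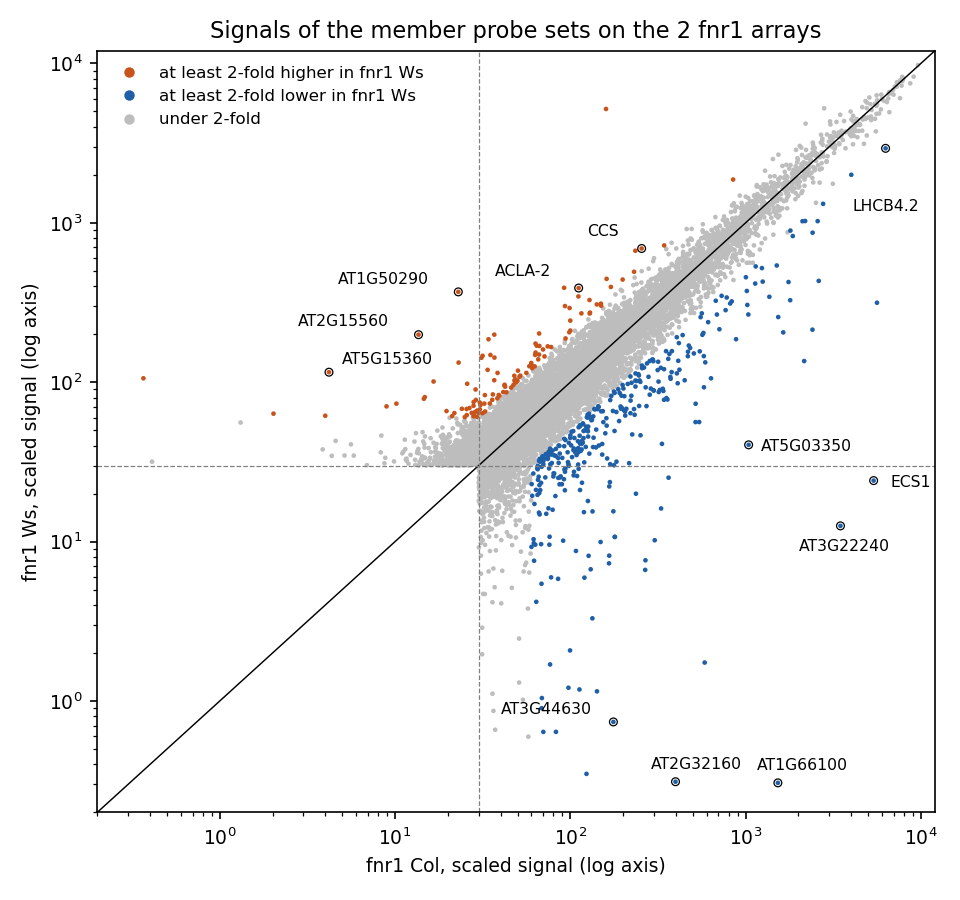
Scaled signal of each of the 11712 members in fnr1 Ws (vertical, log axis) against fnr1 Col (horizontal, log axis), with dashed lines at 30 and a solid line of equal signal; colours mark members at least 2-fold apart after signals under 30 were set to 30. The signals are plotted without the floor, and of the labelled genes AT1G66100 and AT2G32160 lie farthest below the line. After the floor 17 of the 345 lower members and 2 of the 113 higher ones were at least 8-fold apart.

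The clearest differences were transcripts bright in fnr1 Col and under 30 in fnr1 Ws. ECS1, a gene for a protein of the cell wall, had 24.1 in fnr1 Ws and 5372 in fnr1 Col, against 13.7 in WT Ws and 4796 in WT Col. It was at least 179-fold lower in fnr1 Ws and at least 160-fold lower in WT Ws, where each fold is a bound because the dim signal was set to 30. Both Ws arrays were dim and both Col arrays bright. AT3G22240, a neighbour of the defence gene PCC1, had 12.5 in fnr1 Ws and 3475 in fnr1 Col, against 15.5 in WT Ws and 1018 in WT Col, so it was at least 116-fold lower in the mutants and at least 33.9-fold lower in the wild types. AT1G66100, a thionin gene, had 0.31 in fnr1 Ws and 1527 in fnr1 Col, against 3.28 in WT Ws and 1660.5 in WT Col. Thionins are small cysteine-rich peptides toxic to microbes, and this one was at least 50.9-fold lower in fnr1 Ws and at least 55.3-fold lower in WT Ws.

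A further 5 genes under 30 in fnr1 Ws had fnr1 Col signals between 180 and 398. AT2G32160 had 0.31 in fnr1 Ws and 398 in fnr1 Col, against 4.03 in WT Ws and 190.2 in WT Col. AT1G73490 had 10.2 in fnr1 Ws and 303 in fnr1 Col, against 9.37 in WT Ws and 304 in WT Col. Its ratio was thus nearly the same in both genotypes, at least 10.1-fold lower in each. AT3G47250, of a plant family of unknown function (DUF247), had 7.64 in fnr1 Ws and 268 in fnr1 Col, against 4.38 in WT Ws and 298 in WT Col. HTB11, which encodes histone H2B, a core protein of the nucleosome, had 20.0 in fnr1 Ws and 237 in fnr1 Col, against 22.2 in WT Ws and 221 in WT Col. The bounds were 8.94-fold for AT3G47250 and 7.89-fold for HTB11 in the mutants. AT1G35710, a leucine-rich repeat receptor kinase gene, had 10.7 in fnr1 Ws and 180 in fnr1 Col, against 12.1 in WT Ws and 75.4 in WT Col. All 5 were under 30 on both Ws arrays and above 30 on both Col arrays, and AT2G32160 and AT1G35710 were brighter in fnr1 Col than in WT Col.

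The reverse pattern was rarer and weaker. AT1G50290 had 369 in fnr1 Ws and 23.0 in fnr1 Col, against 283 in WT Ws and 21.0 in WT Col, which made it at least 12.3-fold higher in fnr1 Ws and at least 9.45-fold higher in WT Ws. AT2G15560 had 199 in fnr1 Ws and 13.6 in fnr1 Col, against 167 in WT Ws and 12.1 in WT Col. AT5G15360 had 116 in fnr1 Ws and 4.2 in fnr1 Col, against 107 in WT Ws and 1.97 in WT Col. These genes were bright on both Ws arrays and dim on both Col arrays. AT3G28500, for an acidic P2 protein of the large ribosomal subunit, had 90.0 in fnr1 Ws and 28.8 in fnr1 Col, against 98.5 in WT Ws and 29.8 in WT Col. AT1G20490 had 70.5 in fnr1 Ws and 8.94 in fnr1 Col, and AT3G49310 had 67.9 and 25.6 in the same order. The last 2 genes of this kind behaved otherwise in the wild types: AT1G30250 had 41.6 in WT Ws and 31.4 in WT Col, and AT3G29130 had 25.9 in WT Ws and 33.0 in WT Col, against 71.2 and 66.3 in fnr1 Ws.

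Over all members, 31 probe sets were at 60 or more in fnr1 Ws and under 30 in fnr1 Col, and 95 were at 60 or more in fnr1 Col and under 30 in fnr1 Ws. With 100 as the bright level these counts were 6 and 37, with 200 they were 1 and 11, and with 1000 they were 0 and 3. The arrays themselves held nearly equal numbers of bright probe sets, 7777 at 60 or more in fnr1 Ws and 7787 in fnr1 Col. The wild type arrays met the same limits for 13 of the 31 and for 53 of the 95.

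**Figure D2:**
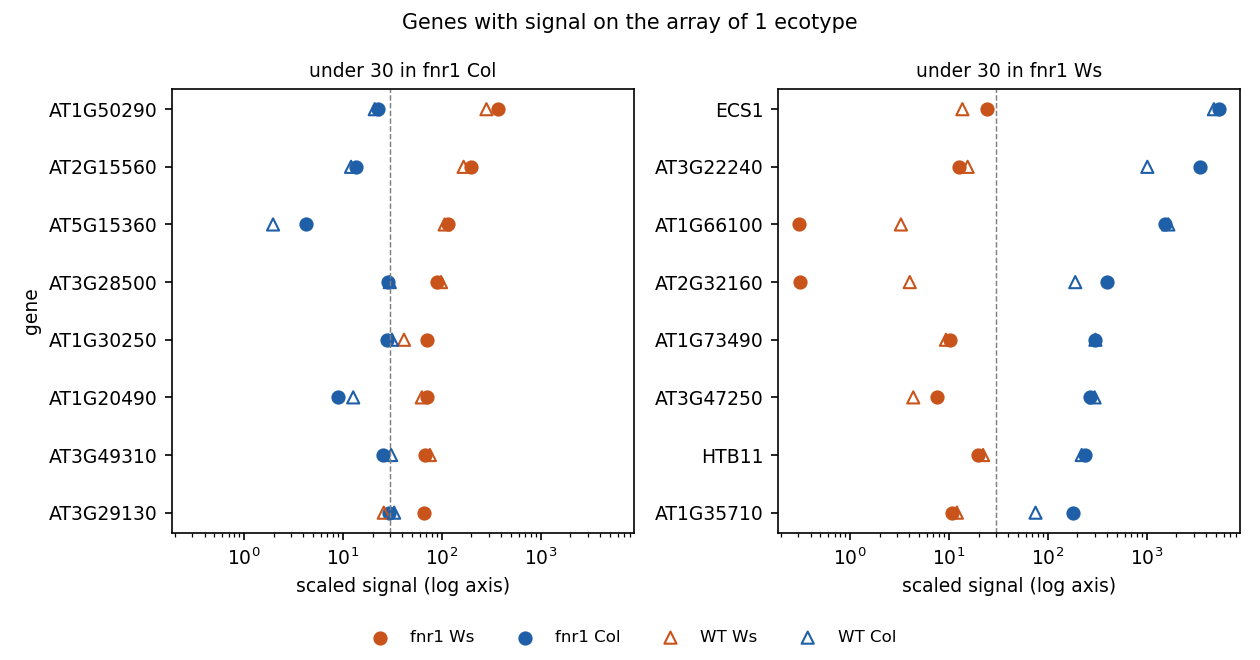
Scaled signals (log axis) of the 8 genes under 30 in fnr1 Col that were brightest in fnr1 Ws (left) and the 8 genes under 30 in fnr1 Ws that were brightest in fnr1 Col (right); filled circles are fnr1 arrays, open triangles WT arrays, and the dashed line marks 30. The triangles lie beside the circles of their ecotype for most genes, and AT3G29130 and AT1G30250 are exceptions on the left.

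Among genes measured at 30 or more on both mutant arrays, those higher in fnr1 Ws were led by 3 with ratios above 4-fold. AT2G35820 had a signal of 186 in fnr1 Ws and 34.1 in fnr1 Col, AT5G55570 had 199 and 36.8, and AT2G20870 had 142 and 31.1 in the same order, with log2 ratios of 2.45, 2.43 and 2.19. Their wild type log2 ratios were 2.08, 2.63 and 1.95, so each stood on the same side by a like amount. ACLA-2, for an A subunit of the cytosolic enzyme ATP-citrate lyase, which makes acetyl-CoA, had 389.8 in fnr1 Ws and 112 in fnr1 Col, against 322 in WT Ws and 80.6 in WT Col (log2 ratios of 1.80 and 2.0). UGT87A2, a glycosyltransferase gene, had 202 in fnr1 Ws and 66.4 in fnr1 Col, against 201 in WT Ws and 54.8 in WT Col. CCS, the chaperone that loads copper into copper/zinc superoxide dismutases, had 689.9 in fnr1 Ws and 255 in fnr1 Col, against 491 in WT Ws and 221 in WT Col. For all 3, picked by their ratios in the mutants, the Ws arrays were above the Col arrays in both genotypes. The share of all members with this order was not counted. AT3G59780, a rhodanese-domain protein gene, had 668 in fnr1 Ws and 235 in fnr1 Col, and AT1G48750, a lipid transfer protein gene, had 345 and 111 in the same order. AT1G20070 had 300.4 in fnr1 Ws and 93.2 in fnr1 Col, against 247 in WT Ws and 133 in WT Col. Its log2 ratio was 1.69 in the mutants and 0.89 in the wild types. The other 3 of the 12 genes were AT5G58575, AT3G60980 and AT2G15690, with log2 ratios of 1.48, 1.46 and 1.4 in the mutants, and 1.42, 1.21 and 1.29 in the wild types, where that of AT5G58575 is a bound because WT Col had 29.9.

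Genes lower in fnr1 Ws but measured on both mutant arrays were led by AT5G03350, a legume lectin-domain gene. It had 40.5 in fnr1 Ws and 1040.1 in fnr1 Col, against 30.8 in WT Ws and 246 in WT Col. Its log2 ratio was -4.68 in the mutants and -3.0 in the wild types, and of the 4 arrays fnr1 Col was by far the brightest. CYP71B26, a cytochrome P450 gene, had 31.0 in fnr1 Ws and 216 in fnr1 Col, against 34.6 in WT Ws and 171 in WT Col (-2.80 and -2.30). AT1G67865 had 256 in fnr1 Ws and 1535 in fnr1 Col, against 285 in WT Ws and 1126 in WT Col (-2.58 and -1.98). AT4G02450, a p23-type co-chaperone of HSP90, had 46.4 in fnr1 Ws and 251 in fnr1 Col, against 58.6 in WT Ws and 237 in WT Col (-2.44 and -2.02). In each of these the pair of Ws arrays lay far below the pair of Col arrays. AT2G33220, for a GRIM-19-type subunit of mitochondrial complex I, had 47.0 in fnr1 Ws and 225 in fnr1 Col, against 37.8 in WT Ws and 211 in WT Col. AT2G21860, related to violaxanthin de-epoxidase, an enzyme of the xanthophyll cycle, had 103 in fnr1 Ws and 449 in fnr1 Col, against 95.1 in WT Ws and 515 in WT Col. AT5G44580 was one of few in this set with a smaller ratio in the mutants: it had 133 in fnr1 Ws and 589 in fnr1 Col, against 63.9 in WT Ws and 648 in WT Col (-2.14 and -3.34). The remaining 5 of the 12, AT3G22970, AT3G28220, 2A6, AT1G21770 and AT3G23080, had log2 ratios of -2.56, -2.46, -2.29, -2.15 and -2.14 in the mutants and of -1.86, -2.21, -1.67, -1.92 and -1.91 in the wild types. The wild type ratios of AT3G22970 and AT3G28220 are bounds, since WT Ws had 27.5 and 26.9.

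The wild type pair, measured on arrays that the mutant pair did not share, showed much of the same pattern. Of the 113 members at least 2-fold higher in fnr1 Ws, 49 (43.4%) were at least 2-fold higher in WT Ws too, and these were 34.5% of the 142 members past that limit there (1.21% of members). Of the 345 lower members, 196 (56.8%) were at least 2-fold lower in WT Ws, and these were 68.5% of the 286 past that limit there (2.44%). A further 29 of the higher and 73 of the lower members were 1.5-fold to 2-fold apart the same way in the wild types. The median log2 ratio of the higher members was 1.18 in the mutants and 0.92 in the wild types, and that of the lower members was -1.43 and -1.13. Both medians were nearer to 0 in the wild types, and the members had been chosen by their values in the mutants. Across all 11712 members the log2 ratios of the 2 genotypes had a Pearson r of 0.632 and a Spearman rho of 0.418, which describe probe sets of 4 arrays and not independent replicates. The wild type counts depended on scaling: with the deposited values 649 members were higher by 2-fold or more in WT Ws and 149 were lower by as much, and lower calls made up 18.7% of these, against 66.8% after median scaling. The mutant counts were 108 and 349 with the deposited values.

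The spread of the ratios between ecotypes was wider than that between genotypes. The standard deviation over members of the log2 ratio was 0.49 for fnr1 Ws over fnr1 Col, 0.47 for WT Ws over WT Col, 0.28 for fnr1 Ws over WT Ws and 0.34 for fnr1 Col over WT Col. Each genotype contrast shares an array with the ecotype contrasts. Between genotypes, fnr1 Ws stood 2-fold or more above WT Ws for 18 of the same members (0.154%) and below it for 11 (0.0939%). fnr1 Col stood 2-fold or more above WT Col for 71 (0.606%) and below it for 24 (0.205%).

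**Figure D3:**
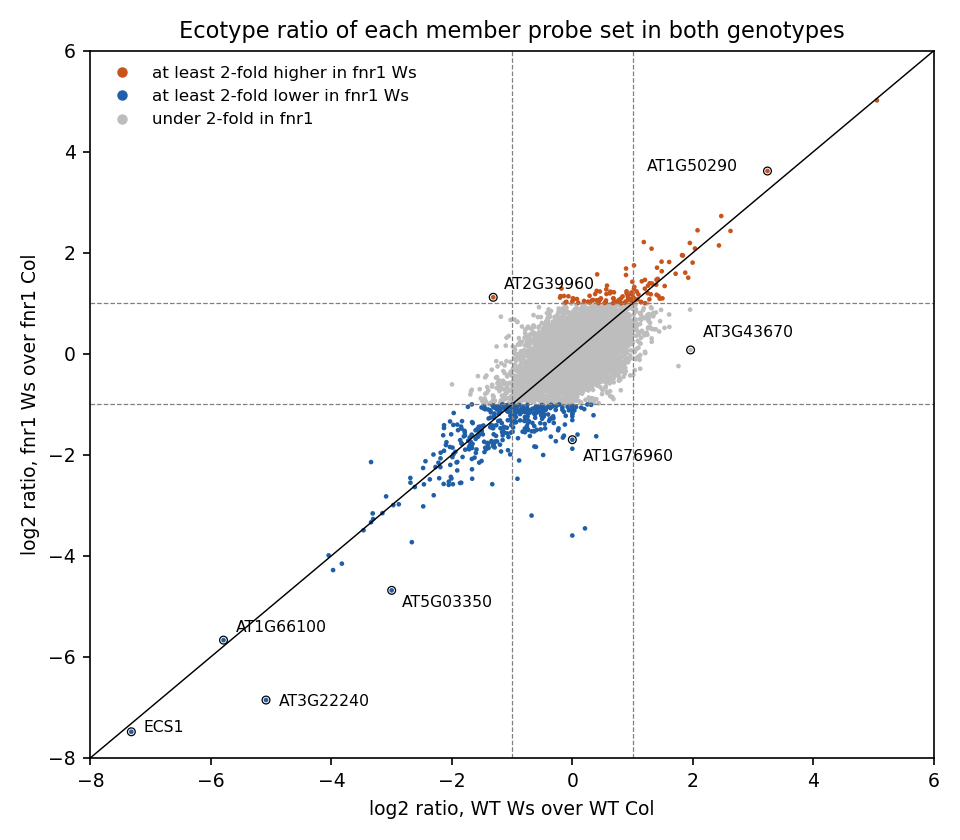
Log2 ratio of Ws over Col for each of the 11712 members in fnr1 (vertical) and in WT (horizontal), with dashed lines at 2-fold and a solid line of equal ratios. Most coloured members lie on the same side in both genotypes, AT2G39960 has opposite signs, and AT1G76960 is lower in fnr1 Ws with a WT ratio of 0.00 because both WT signals were under 30.

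Part of the members apart in the mutants were not apart in the wild types. For 76 of the 345 lower members the wild types differed by under 1.5-fold, and in 21 of these 76 fnr1 Col was at least 2-fold above WT Col, while fnr1 Ws was at least 2-fold below WT Ws in 3. The ecotype and genotype contrasts share the mutant arrays, so both counts read the same values. Over all members fnr1 Col was that far above WT Col in 0.606%, and fnr1 Ws that far below WT Ws in 0.0939%. Of the genes given for this pattern, AT3G60420, CHI, AT3G23570 and CaS were picked after their values were seen. AT3G60420, of the phosphoglycerate mutase family, had 41.6 in fnr1 Ws and 98.1 in fnr1 Col, against 13.9 in WT Ws and 14.2 in WT Col. AT1G76960 had 1.21 in fnr1 Ws and 97.6 in fnr1 Col, against 0.42 in WT Ws and 24.1 in WT Col. CHI (AT2G43570), a chitinase-family gene, had 0.90 in fnr1 Ws and 68.5 in fnr1 Col, against 6.73 in WT Ws and 1.49 in WT Col. For these 3 genes fnr1 Col was the highest of the 4 arrays and both wild types were under 30. AT1G11330, an S-domain receptor kinase gene, had 48.9 in fnr1 Ws and 102 in fnr1 Col, against 31.3 in WT Ws and 25.3 in WT Col. AT3G23570 had 101 in fnr1 Ws and 319 in fnr1 Col, against 173 in WT Ws and 193 in WT Col, so that the mutants lay on either side of the wild types. CaS, a thylakoid calcium-sensing protein gene, had 1026 in fnr1 Ws and 2186 in fnr1 Col, against 1440.4 in WT Ws and 2153 in WT Col, so that both Ws arrays lay below both Col arrays and fnr1 Ws was the lowest. Its log2 ratio was -1.09 in the mutants and -0.58 in the wild types, just under 1.5-fold.

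Of the 113 higher members, 34 were under 1.5-fold apart in the wild types and 1, AT2G39960, was at least 2-fold apart the other way. Among these 35, fnr1 Ws was at least 2-fold above WT Ws in 4 and fnr1 Col at least 2-fold below WT Col in 3. Over all members fnr1 Ws was that far above WT Ws in 0.154%, and fnr1 Col that far below WT Col in 0.205%. The 35 were picked by ecotype ratios that share these arrays, so the counts read the same values. AT2G39960, a subunit of the signal peptidase complex that removes signal peptides in the endoplasmic reticulum, had 307 in fnr1 Ws and 142 in fnr1 Col, against 124 in WT Ws and 308 in WT Col. Its log2 ratio was 1.12 in the mutants and -1.31 in the wild types, a difference of 2.43 that has no replicate. AT4G33380 had 162 in fnr1 Ws and 97.1 in fnr1 Col, against 91.7 in WT Ws and 209 in WT Col (0.73 and -1.19). BGLU25, of the beta-glucosidase family, had 74.1 in fnr1 Ws and 48.0 in fnr1 Col, against 52.5 in WT Ws and 98.8 in WT Col (0.63 and -0.91). AT1G49200 had ratios of 0.68 and -0.96. These 4 genes were named for the highest differences between the mutant and wild type ratios, a choice that favours low signals in WT Ws and fnr1 Col. In all 4 genes WT Ws and fnr1 Col were the lower 2 of the 4 arrays. The copper amine oxidase gene AT3G43670 was nearly level in the mutants, at 78.5 in fnr1 Ws and 74.5 in fnr1 Col, against 129 in WT Ws and 33.2 in WT Col (0.08 and 1.96). AT2G37190, of the ribosomal protein L11 family, had 1868 in fnr1 Ws and 848 in fnr1 Col, against 1357 in WT Ws and 1420 in WT Col. TPLATE, an adaptor protein of endocytosis, had 132 and 59.8, against 99.6 and 114 in the same order. These last 2 genes were named after their values were seen, and in both fnr1 Col was the lowest array.

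Genes of intracellular immune receptors, resistance proteins with a nucleotide-binding site and leucine-rich repeats (NBS-LRR), were mostly dim, and those past 2-fold were lower in fnr1 Ws. Of 83 such genes with a probe set 18 were members. Of these 18, 11 reached 30 in fnr1 Col alone and could only be level or lower, 1 reached it in fnr1 Ws alone, and 6 did on both arrays. Past 2-fold were 4 of the 11 and 1 of the 6, all lower. Over all genes, 40 of the 388 that reached 30 in fnr1 Col alone (10.3%) and 116 of the 5350 measured on both arrays (2.17%) were at least 2-fold lower. The counts of this family are small and were not tested. AT3G44630, of the class with a TIR domain, had 0.74 in fnr1 Ws and 176 in fnr1 Col, against 6.63 in WT Ws and 108 in WT Col. AT1G63880 had 8.14 in fnr1 Ws and 127 in fnr1 Col, against 10.3 in WT Ws and 95.3 in WT Col. CSA1 had 0.64 in fnr1 Ws and 82.8 in fnr1 Col, against 8.60 in WT Ws and 75.5 in WT Col. These were at least 5.87-fold, 4.24-fold and 2.76-fold lower in fnr1 Ws, and the Ws arrays were under 30 in both genotypes. AT4G19530 had 88.8 in fnr1 Ws and 299 in fnr1 Col, against 73.6 in WT Ws and 313 in WT Col (-1.75 and -2.09). AT4G19500, the fifth of the lower genes and named to complete the count, had 1.70 in fnr1 Ws and 76.6 in fnr1 Col, against 7.81 in WT Ws and 95.1 in WT Col. It lies close to AT4G19530, and between them AT4G19510, with 4.69 in fnr1 Ws and 32.6 in fnr1 Col, only just reached the minimum. The most strongly expressed members outside these were not far apart: AT5G45510 had 168 in fnr1 Ws and 192 in fnr1 Col. The other 65 genes with a probe set were under 30 on both mutant arrays and have no ratio.

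S-domain receptor kinases and TRAF-like proteins were measured by few genes. Of 24 S-domain receptor kinase genes with a probe set, 6 were members, 2 of them through fnr1 Col alone. At least 2-fold lower in fnr1 Ws were 1 of these 2 and 1 of the 4 measured on both arrays, and in the wild types 1 of the 6 was. AT1G11280 had 15.3 in fnr1 Ws and 119.6 in fnr1 Col, against 11.2 in WT Ws and 148 in WT Col, at least 3.99-fold lower in the mutants. Its neighbour AT1G11330 was the other (-1.05), while AT4G27300 had 135 in fnr1 Ws and 114 in fnr1 Col. Of 6 TRAF-like genes, whose proteins carry a MATH domain, 3 were members. The first 2, ZW9 and AT1G65370, were members through fnr1 Col alone, so only AT3G28220 could have been higher. ZW9 had 10.7 in fnr1 Ws and 179 in fnr1 Col, against 8.31 in WT Ws and 132 in WT Col. AT1G65370 had 8.16 in fnr1 Ws and 167 in fnr1 Col, against 4.83 in WT Ws and 94.97 in WT Col. AT3G28220 had 30.6 in fnr1 Ws and 169 in fnr1 Col, against 26.9 in WT Ws and 139 in WT Col. These 3 were near or under 30 on the Ws arrays and well above it on the Col arrays, and each was at least 2-fold lower in fnr1 Ws. The 3 that were no members, AT5G26260, AT5G26280 and AT3G20370, were under 30 on all 4 arrays. The lists of NBS-LRR, S-domain and TRAF-like genes were drawn up after the annotation was read and some values seen.

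Defence markers outside these families were few. SAG101, of salicylic acid defence, was under 30 on all arrays, as was the immune receptor gene EFR. PDF1.2, a defensin gene induced by jasmonate and ethylene, had 52.9 in fnr1 Ws and 25.8 in fnr1 Col, against 78.5 in WT Ws and 18.1 in WT Col. PDF1.2b had 30.6 in fnr1 Ws and 14.4 in fnr1 Col, against 46.1 in WT Ws and 11.97 in WT Col. Both were brighter on the Ws arrays, by at least 1.76-fold and at least 1.02-fold in the mutants, and neither reached 2-fold there. Of the mutant arrays both reached 30 in fnr1 Ws alone, PDF1.2b only just, so their mutant ratios could only be level or higher. Whether these probe sets tell the copies apart was not tested. THI2.1, a thionin gene, was under 14 on all arrays. THI2.2, another thionin gene, named after its values were seen, had 123 in fnr1 Ws and 241 in fnr1 Col, against 106 in WT Ws and 295 in WT Col (-0.96 and -1.47), so it was lower on both Ws arrays.

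Few nuclear genes of photosynthesis had a listed probe set, and of those LHCB4.2 and LHCB4.3 were past 2-fold between the mutants. Only 3 of 18 genes on the antenna list, 5 of 32 of photosystems and electron carriers and 3 of 12 of the Calvin-Benson cycle could be read. The 3 antenna genes are all for the LHCB4 (CP29) protein that links the outer antenna to photosystem II. LHCB4.1 had 6518 in fnr1 Ws and 6751 in fnr1 Col (-0.05). LHCB4.2 had 2931 in fnr1 Ws and 6284 in fnr1 Col, against 3138 in WT Ws and 6728 in WT Col, with a log2 ratio of -1.10 in both genotypes. LHCB4.3 had 266 in fnr1 Ws and 686 in fnr1 Col, against 306 in WT Ws and 511 in WT Col (-1.37 and -0.74). The gene pair LHCB4.2 and LHCB4.3 was lower on both Ws arrays and LHCB4.1 was not. The 5 measured genes of photosystems and electron carriers, PSBY, PSAN, PSAE-1, PSBW and PGRL1B, had log2 ratios from -0.16 to 0.11, and PGRL1B, which acts in cyclic electron flow, had 108 in fnr1 Ws and 100.2 in fnr1 Col. The 3 Calvin-Benson cycle genes RCA, SBPASE and PRK ran from -0.08 to 0.05, and 0 of these 8 genes were 2-fold apart.

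Of 69 plastid-encoded genes with a probe set 66 were members, with 1 at least 2-fold higher (1.52%), 1 at least 2-fold lower (1.52%) and 60 under 1.5-fold. Over all genes 0.996% were higher and 2.55% lower, and 85.9% of all members were under 1.5-fold. The plastid counts thus lie near the background. Plastid genomes pass down with the mother's cytoplasm, and their genes encode core subunits of the photosynthetic complexes and the machinery that expresses them. Per the labels the cDNA was primed with oligo(dT), which favours transcripts with poly(A) tails, and the part of this in plastid signals was not tested. The median log2 ratio was 0.04 in the mutants and 0.18 in the wild types. petG, a small subunit of the cytochrome b6f complex, had 211 in fnr1 Ws and 100.0 in fnr1 Col, against 208 in WT Ws and 98.3 in WT Col (1.08 in both). ndhA, of the NDH complex that returns electrons to plastoquinone in cyclic flow, had 893 in fnr1 Ws and 1800.4 in fnr1 Col, against 988 in WT Ws and 1656 in WT Col (-1.01 and -0.75). Its neighbours in the gene numbering, named after their values were seen, were lower as well. ndhH had 107 in fnr1 Ws and 202 in fnr1 Col, against 125 in WT Ws and 217 in WT Col (-0.92 and -0.79), and ndhI had 3743 and 5529.8, against 3954 and 5202 (-0.56 and -0.40) in the same order. The other 6 NDH members lay between -0.22 and 0.09. rps4, for a ribosomal protein, had 5227 in fnr1 Ws and 2804 in fnr1 Col, against 5828 in WT Ws and 2887 in WT Col, and psbA, for the D1 protein of photosystem II, had 2674 and 1538, against 2885 and 1558. By class the medians were -0.16 for 9 NDH genes, 0.23 for 5 of photosystem I, -0.04 for 15 of photosystem II, 0.25 for 5 of the cytochrome b6f complex, -0.05 for 6 of the ATP synthase, 0.16 for 14 of the ribosome and 0.25 for 4 of the RNA polymerase.

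Families of enzymes and chromatin proteins had up to 2 members past 2-fold. Over all genes 0.996% were at least 2-fold higher and 2.55% at least 2-fold lower. The counts of these families are small and were not tested. ACLA-2 was the only 1 of 4 ATP-citrate lyase genes past 2-fold: ACLA-1 had 787 in fnr1 Ws and 689 in fnr1 Col, ACLA-3 had 135 and 190.4, and ACLB-1 had 430.2 and 467 in the same order. Of 7 antioxidant and copper genes CCS was higher and ARPN, for the copper protein plantacyanin, was lower, with 30.6 in fnr1 Ws and 97.5 in fnr1 Col, against 46.8 in WT Ws and 87.5 in WT Col (-1.67 and -0.90). The other 5, TAPX, SAPX, GR1, GR and AT3G11630, had ratios between -0.02 and 0.20. Of 11 cytochrome P450 members CYP71B26 was lower and 0 were higher, with a median of -0.22. Of 16 UDP-glycosyltransferase members UGT87A2 was higher and 0 were lower, with a median of -0.13, and UGT88A1 came close with 561 in fnr1 Ws and 1097 in fnr1 Col (-0.97). Of 10 ubiquitin-conjugating enzymes, which hand ubiquitin to target proteins, 2 were lower. UBC28 had 343 in fnr1 Ws and 1366 in fnr1 Col, against 425 in WT Ws and 869 in WT Col (-1.99 and -1.03), and UBC18 had 31.4 and 120.04, against 37.9 and 85.9 (-1.93 and -1.18) in the same order. For both, fnr1 Col was the brightest array. The 4 histone genes measured all encode H2B: besides HTB11, HTB1 had 355 in fnr1 Ws and 181 in fnr1 Col, HTB2 had 93.1 and 185, and HTB4 had 549 and 535. HTB1 and HTB2 thus lay close to 2-fold in opposite directions (0.97 and -0.99), with HTB4 level.

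Several short lists had 0 members at least 2-fold apart: 3 genes of cold response, 3 of flavonoids, 4 of glucosinolates, 2 of sugar transport, 5 glutathione transferases, 8 expansins and 2 WRKY factors. Over all genes 0.996% were higher and 2.55% lower, so counts of 0 in lists of this length lie near the background. COR15B, a cold-regulated protein of the chloroplast stroma, had 62.4 in fnr1 Ws and 35.1 in fnr1 Col, and its paralogue COR15A had 202 and 314. In the wild types COR15A had 151 in WT Ws and 141 in WT Col, so fnr1 Col was its highest array. The dehydrin gene COR47 had a ratio of 0.36 and LTI30 was under 30 on all arrays. DFR, which makes leucoanthocyanidins, had 26.6 in fnr1 Ws and 53.6 in fnr1 Col, and the flavonol glycosyltransferases UGT78D1 and UGT78D2 had ratios of -0.68 and -0.09. Of glucosinolate genes UGT74B1 had -0.46, AT2G31790 -0.29, BCAT4 0.04 and AOP1 0.02. The sugar exporters SWEET11 and SWEET13 had 0.03 and 0.19, and the clock gene GI had 57.7 in fnr1 Ws and 45.2 in fnr1 Col. Among 8 expansins, which loosen cell walls, the ratios ran from -0.73 for EXPB3 to 0.78 for EXPA8, which had 980 in fnr1 Ws and 570.2 in fnr1 Col.

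**Figure D4:**
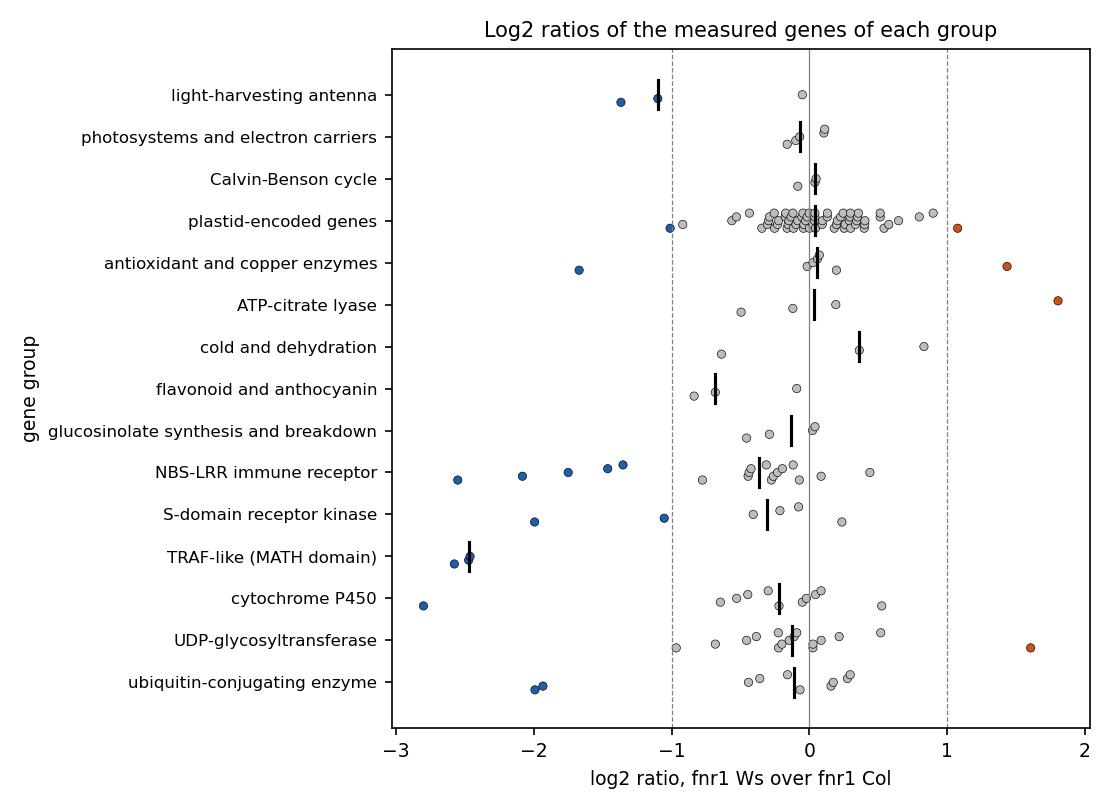
Log2 ratio of fnr1 Ws over fnr1 Col for the measured genes of 15 groups, where each point is a gene, the black bar is the group's median, and dashed lines mark 2-fold (orange higher, blue lower). Points of genes under 30 on an array are bounds; the 3 TRAF-like genes and 5 of the 18 NBS-LRR genes lie past 2-fold on the low side, and 2 of these 3 and 4 of these 5 were members through fnr1 Col alone, while 64 of the 66 plastid-encoded genes lie within it.

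The surplus of lower members held at every signal level. Members with a mean signal under 60 in the mutants were at least 2-fold higher in 0.991% and lower in 2.11% of 3936 cases. Between 120 and 240 the shares were 0.838% and 3.59% of 2147, and at 960 or more they were 0.363% and 3.27% of 551. Higher members were thus a smaller share among bright probe sets than among dim ones, and lower members were not.

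**Figure D5:**
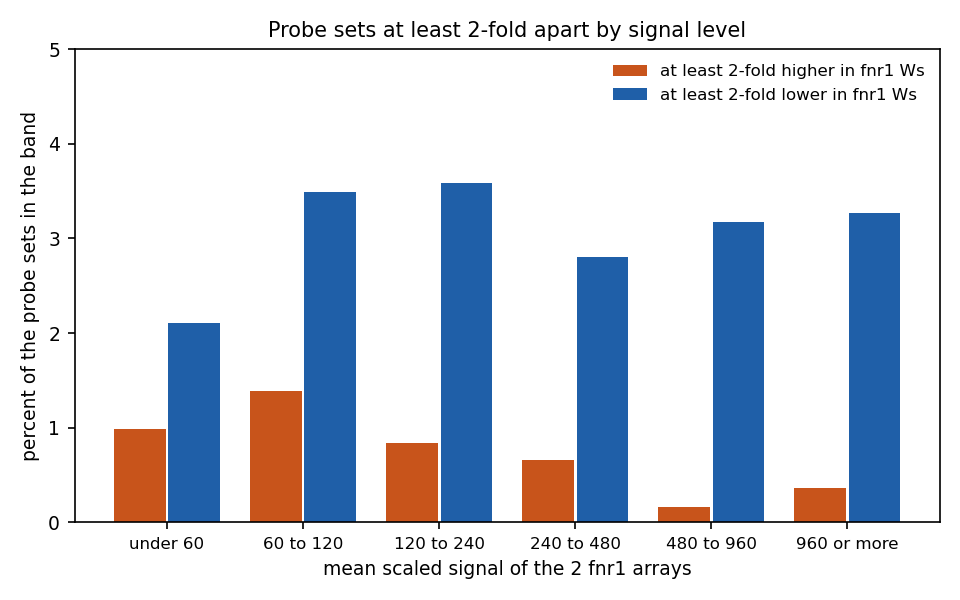
Percent of members at least 2-fold higher (orange) and lower (blue) in fnr1 Ws, by band of mean scaled signal of the 2 fnr1 arrays. Lower members outnumber higher ones in each band, with 2.11% against 0.991% in the dimmest and 3.27% against 0.363% in the brightest.

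Genes lower in fnr1 Ws often lay near one another in the order of measured genes. Of 154 lower genes on the 5 chromosomes, 58 (37.7%) had another lower gene within 5 measured genes on either side, whereas 1262 of all 6046 genes (20.9%) had one. For genes higher in fnr1 Ws the counts were 8 of 60 (13.3%) against 570 of 6046 (9.43%). Chromosome 4 had the smallest share of lower genes, 11 of 870 (1.26%), and chromosome 1 the greatest, 48 of 1567 (3.06%), with 1.90% on chromosome 2, 2.96% on chromosome 3 and 2.80% on chromosome 5. These shares were described and not tested.

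The longest run was on chromosome 3, where 4 of 8 measured genes in a row were lower. CSLC04 (AT3G28180), for a synthase of the xyloglucan backbone, had 65.0 in fnr1 Ws and 183 in fnr1 Col, against 71.5 in WT Ws and 212 in WT Col. AT3G28220, the TRAF-like gene above, lay next. AT3G28270 had 23.6 in fnr1 Ws and 168 in fnr1 Col, against 26.5 in WT Ws and 155 in WT Col, and AT3G28540 had 5.84 and 85.1, against 8.55 and 45.2. The ribosomal gene AT3G28500, higher in fnr1 Ws, lies within the same stretch, so the run was not of one direction. On chromosome 1 AT1G65950 and AT1G66130 flanked the thionin gene AT1G66100. AT1G66130 had 70.4 in fnr1 Ws and 193 in fnr1 Col, against 99.2 in WT Ws and 217 in WT Col, but AT1G65950 was lower only in the mutants, at 39.7 and 92.2, against 69.7 and 54.7. On chromosome 5 AT5G42090, scpl42 and AT5G42250 were lower together. AT5G42250 had 9.94 in fnr1 Ws and 149 in fnr1 Col, against 7.10 in WT Ws and 113 in WT Col. The lectin gene AT5G03350 was beside AT5G03345, with 131 in fnr1 Ws and 274 in fnr1 Col, against 128 in WT Ws and 316 in WT Col. The genes of these runs were named after their values were seen.

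Probe sets without a single listed gene made up 52 of the 113 higher and 189 of the 345 lower members, and some were among the farthest apart. The probe set 263174_at had 5175 in fnr1 Ws and 159.8 in fnr1 Col, against 5634 in WT Ws and 169 in WT Col, the greatest ratio in the direction of Ws (5.02 and 5.06). In the other direction 257008_at had 315 in fnr1 Ws and 5614 in fnr1 Col, against 416 in WT Ws and 5902 in WT Col. A probe set shared by several genes, 245651_s_at, had 1.74 in fnr1 Ws and 584 in fnr1 Col, against 5.95 in WT Ws and 471 in WT Col, at least 19.5-fold lower in the mutants. For these the Ws pair and the Col pair stood apart in both genotypes. The unlisted 247954_at had 146 in fnr1 Ws and 31.6 in fnr1 Col, against 68.3 in WT Ws and 17.4 in WT Col. Other unlisted probe sets, picked after their values were seen, set fnr1 Col apart: 266385_at had 25.2 in fnr1 Ws and 363 in fnr1 Col, against 23.3 in WT Ws and 12.3 in WT Col, and 251625_at had 16.1 and 329, against 34.7 and 21.9. The probe set 247131_at had 2.08 in fnr1 Ws and 99.6 in fnr1 Col, against 1548 in WT Ws and 1872 in WT Col, so both mutant arrays were far below both wild type arrays. No gene was listed for it, and its values were not used as a check of the mutant labels.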

How the data were processed

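The authors deposited an intensity value on a linear scale for every probe set of every array. The submitters' processing notes name MAS5 as the tool, and its version, scaling target and detection calls are not given in the sources used here. Labelled cRNA came from 3 µg of RNA per sample, per the labels' protocols. The depth of arrays has no count, and their number limits the precision.

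From these values the 64 control probe sets of 22810 were dropped, the 4 arrays were scaled to a common median of 27.6 (the geometric mean of the mutant medians), signals under a floor of 30 were set to 30, and log2 ratios of Ws over Col were taken. A fold with a signal under the floor is a bound. With 1 array per group there is no test. Python 3.11, pandas 2.3.3, numpy 2.4.6 and matplotlib 3.10.9 were used, and the scaling and ratio steps were tested on simulated data. Changes were planted there in bright probe sets only, so the bounds set by the floor were not part of that test.

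Annotation was at hand for 14016 probe sets. A single gene was given for 13513, of which 13436 matched the TAIR10.1 gene table. Of the members, 6175 had a single gene and 246 more than one, while 5291 had no annotation. PHYD and FLS2 were not analysed here. Each gene was read from its brightest probe set by mean over the 4 arrays; of 48 genes with several member probe sets, 0 differed by 2-fold or more between them.

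Named were the 12 highest and 12 lowest genes measured on both mutant arrays, the 8 brightest per direction that were under 30 on the other array, the 4 highest and 4 lowest differences between genotypes, and from each gene list every member up to 6 or the farthest members and the brightest one. The 2 highest and 2 lowest probe sets without a single gene were named too. Members and lists were chosen with earlier results of these data known. Of 19 gene lists with 275 entries, those for flowering and for flower, seed and senescence markers had no probe set; most of 20 name patterns matched no gene, so families were taken by locus or symbol instead, after some values had been seen. A name pattern for thionins also matched methionine enzymes and was not used. Alternatives were the deposited scale, quantile normalization, a trimmed mean, no floor, a pseudocount of 16, other signal minimums and leaving out probe sets that can match several transcripts.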

Additional observations from a re-analysis of the deposited data

Results flagged for a closer look

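AT2G39960, the signal peptidase complex gene, had opposite ecotype ratios in the 2 genotypes. Its log2 ratio of Ws over Col was 1.12 in the fnr1 mutants and -1.31 in the wild types, a difference of 2.43. It was the only named gene at least 2-fold apart in opposite directions. Each ratio rests on 1 array per group, and the difference was not tested.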

How the results depend on the processing

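The mutant counts of 113 higher and 345 lower members became 108 and 349 with the deposited values, 124 and 339 after quantile normalization, 131 and 329 with a common trimmed mean, and 82 and 250 when both arrays had to reach 30. Without the floor, 219 were higher and 504 lower in the mutants, because signals under 30 then enter the ratios as measured. In the wild types 251 were then higher. With a pseudocount of 16 in place of the floor the mutant counts were 76 and 322, of which 59 and 272 were among the 113 and 345. Lower members made up 69.7% to 80.9% of those past 2-fold in the mutants under these settings. The wild type counts of 142 higher and 286 lower became 649 and 149 with the deposited values, where the median log2 ratio was 0.39; the WT Col array was the dim one. A higher or absent signal minimum left the mutant counts as they were, by construction. Of 96 named genes and probe sets with a ratio, 62 were past 2-fold. Of these 62, 0 changed sign, but the floor, pseudocount and signal minimum settings could not change a sign by construction. The changes of scale took the median log2 ratio from 0.02 to between 0.01 and 0.05, which left little room for one. Past 2-fold, 57 to 62 stayed under the scaling and pseudocount settings, and removing the floor kept them by construction. Changes of sign among the others were not counted. Without the floor 19 of the 96 moved by over 1.5-fold, and with the pseudocount 8 did. No paired analysis was possible because each group has 1 array, and leaving out an array leaves no ratio. Signals under 30 set only bounds on a fold.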
